A study of Homo sapiens with 9 samples.

Results

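The genes described here are 9 regulators of the G1 phase of the cell cycle, followed in SW1783, a human astrocytoma cell line, after exposure to herbal extracts. They are the D-type cyclins CCND1, CCND2 and CCND3, the kinases CDK4 and CDK6, the pocket protein RB1, the CDK inhibitors CDKN1B and CDKN2C, and the transcription factor MYC. They were picked by symbol from the 60675 genes of the count table, with earlier results of these data known. All 9 were found, and all 9 were among the 18356 genes that passed the filter on low counts. The treated groups were Poria Cocos ethanol extract and Atractylodis Rhizoma ethanol extract, each at 20, 100 and 500 µg/mL with 1 library per dose, and the reference was DMSO vehicle with 3 libraries. Poria is a fungus and Atractylodis Rhizoma a plant rhizome. Exposure lasted 24 h in each group, every library carried the same batch letter, and each treated library was numbered replicate 2. The sample codes, however, divide the vehicle libraries from the treated ones, and what the codes stand for is not given. Any other difference between these sets of libraries cannot be told apart from treatment. The vehicle is 0.1% DMSO in the sample labels but 2% in the design text, and the DMSO content of the treated cultures is not given. The design text also describes doses that depend on an inhibitory concentration (IC20), whereas the doses used here are those of the labels. Nothing in the labels ties the libraries to separate cultures, and the p-values below therefore cover only how far these samples scatter, which may be technical scatter.

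Mitogens raise D-type cyclins, which bind CDK4 or CDK6 and phosphorylate the retinoblastoma protein encoded by RB1, releasing E2F transcription factors that drive entry into S phase. CDKN2C (p18INK4c) binds CDK4 and CDK6 directly, whereas CDKN1B (p27Kip1) mainly inhibits cyclin E and cyclin A complexes with CDK2 and is also bound by cyclin D complexes. MYC promotes growth and G1 progression, and this route is often altered in astrocytic tumours, through amplification of CDK4 or CDK6 or loss of an INK4 inhibitor or RB1.

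Library totals ran between 40269665 and 48905536 counts, and mitochondrial transcripts took between 5.384% and 6.971% of them. The count difference between vehicle libraries, as chi-square per degree of freedom over genes, was 2.46 to 3.44, so none repeated another within sampling noise. Pairs with a treated library had 3.47 to 31.41. The lowest of these values was between the lowest Poria dose and the middle Atractylodis dose, and the next lowest was 7.79. The lowest and middle doses differed by 9.79 within Poria and 10.47 within Atractylodis. The bearing of this close pair on the slopes and extract comparisons was not tested. Of 12 astrocyte markers, 6 were under 1 CPM (counts relative to TMM-scaled library size) in vehicle, among them GFAP (0.0418), S100B (0.108), AQP4 (0.0246) and ALDH1L1 (0.0167), while VIM (5980), CD44 (2750), SOX9 (83.8) and SLC1A3 (21.4) were detected. None of the 12 was at 0 in every library. The summed level of these markers was 7667 to 8357 CPM in treated libraries and 8866 to 9260 CPM in vehicle libraries. VIM and CD44 made up most of this sum. Single markers went both ways: VIM, SOX9 and GJA1 were lower in all treated libraries, and SLC1A3 was higher, at 25.0 to 27.1 CPM. Summed markers of other cell types were 165.1 to 202.3 CPM in treated and 187.6 to 189.8 CPM in vehicle libraries for neurons (8 genes, 2 under 1 CPM in vehicle). They were 133.4 to 164.7 against 175.6 to 183.6 CPM for myeloid cells (8 genes, 5 under 1 CPM), 129.7 to 232.1 against 241.6 to 248.6 CPM for epithelium (6 genes, 3 under 1 CPM), and 33.32 to 41.35 against 30.27 to 32.91 CPM for endothelium (6 genes, 4 under 1 CPM). A single gene made up most of each of these sums, namely CD68 (166 CPM in vehicle), KRT18 (223 CPM) and KDR (28.9 CPM), so they do not measure cell types. The summed level of 5 long nuclear RNAs, followed as a sign of RNA handling, was 2513 to 2829 CPM in treated and 1829 to 1895 CPM in vehicle libraries. These shifts ran alongside every treated-against-vehicle difference below, and their part in the results was not tested.

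In vehicle cells the 9 genes spanned a wide range of levels. Per kilobase of the longest annotated transcript, CDK4 stood highest at 52.2 ± 0.436 CPM per kb (SD, n = 3), ahead of CCND1 at 48.6 ± 0.503 CPM per kb. CCND3 followed at 36.9 ± 0.587 CPM per kb and CDKN2C at 36.2 ± 0.485 CPM per kb, and the libraries of this pair overlapped. MYC lay at 26.7 ± 0.767 CPM per kb. CDK6 (9.46 ± 0.242), CDKN1B (8.48 ± 0.158) and RB1 (1.24 ± 0.0448) were lower, and CCND2 was close to the limit of detection at 0.0227 CPM per kb. Neighbours in this order other than CCND3 and CDKN2C did not overlap between libraries. The order of CDK6 and CDKN1B was turned round in the treated libraries, where CDK6 had 6.79 to 8.03 CPM per kb and CDKN1B had 8.88 to 10.9 CPM per kb. These levels depend on the transcript length taken for each gene, which was the longest and not necessarily the one in use.

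Cyclin D1 mRNA, CDK6 mRNA and p27 mRNA separated the treated from the vehicle libraries, whereas the other 6 genes did not. CCND1 and CDK6 fell and CDKN1B rose in the comparison of 6 treated with 3 vehicle libraries, so 3 of 9 genes passed, where 25.3% of all tested genes did (12.0% higher and 13.3% lower). The median log2 change of the 9 genes was -0.026, against 0.014 over all tested genes. CPM are counts scaled to a common library size after TMM normalization, changes are log2 of treated over vehicle with their SE, and adjusted p-values are from the edgeR quasi-likelihood test with Benjamini-Hochberg adjustment over 18356 genes. The 6 treated libraries are 6 conditions, not replicates of 1, so this test asks what they share. In bulk RNA, fewer cells of a type and less RNA per cell cannot be told apart.

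CCND1 (ENSG00000110092, chr11:69641087-69654474, GRCh38, plus strand) encodes cyclin D1. Along the doses it had 206.9, 211.2 and 209.7 CPM in the vehicle libraries, and 167.1, 154.6 and 154.5 CPM over the Poria doses of 20, 100 and 500 µg/mL. Over the same Atractylodis doses it had 170.2, 155.6 and 143.3 CPM. All 6 treated libraries lay below all 3 vehicle libraries, as did 13.7% of all tested genes, and the lowest value was that of the highest Atractylodis dose. As a share of the vehicle mean, the treated libraries held 68.5% at the highest and 81.3% at the lowest Atractylodis dose, with the Poria libraries between, while the vehicle libraries varied by 1.04% (CV). The change was -0.41 ± 0.045 (fold 0.753, 95% interval -0.50 to -0.31, adjusted p = 1e-05), and it kept its direction and its call in all 14 alternatives, between -0.43 and -0.34.

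CCND3 (ENSG00000112576, chr6:41934933-42050357, minus strand), the cyclin D3 gene, had 89.6, 88.4 and 86.8 CPM in vehicle, then 85.0, 89.0 and 90.6 CPM over the Poria doses and 87.8, 78.9 and 81.8 CPM over the Atractylodis doses. The groups overlapped: the library at 500 µg/mL of Poria was above every vehicle library, while the lowest Poria dose and the upper 2 Atractylodis doses were below. Its change was -0.046 (95% interval -0.14 to 0.044, adjusted p = 0.47 by edgeR). CCND2 (ENSG00000118971, chr12:4273772-4305350, plus strand), the cyclin D2 gene, had 6 counts in each vehicle library, 5, 10 and 12 counts over the Poria doses and 9, 6 and 8 counts over the Atractylodis doses. At so few counts no difference was detectable: the interval ran between -0.46 and 1.11 (log2 change 0.32, adjusted p = 0.57 by edgeR). It passed the filter on low counts through its treated libraries.

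**Figure D1:**
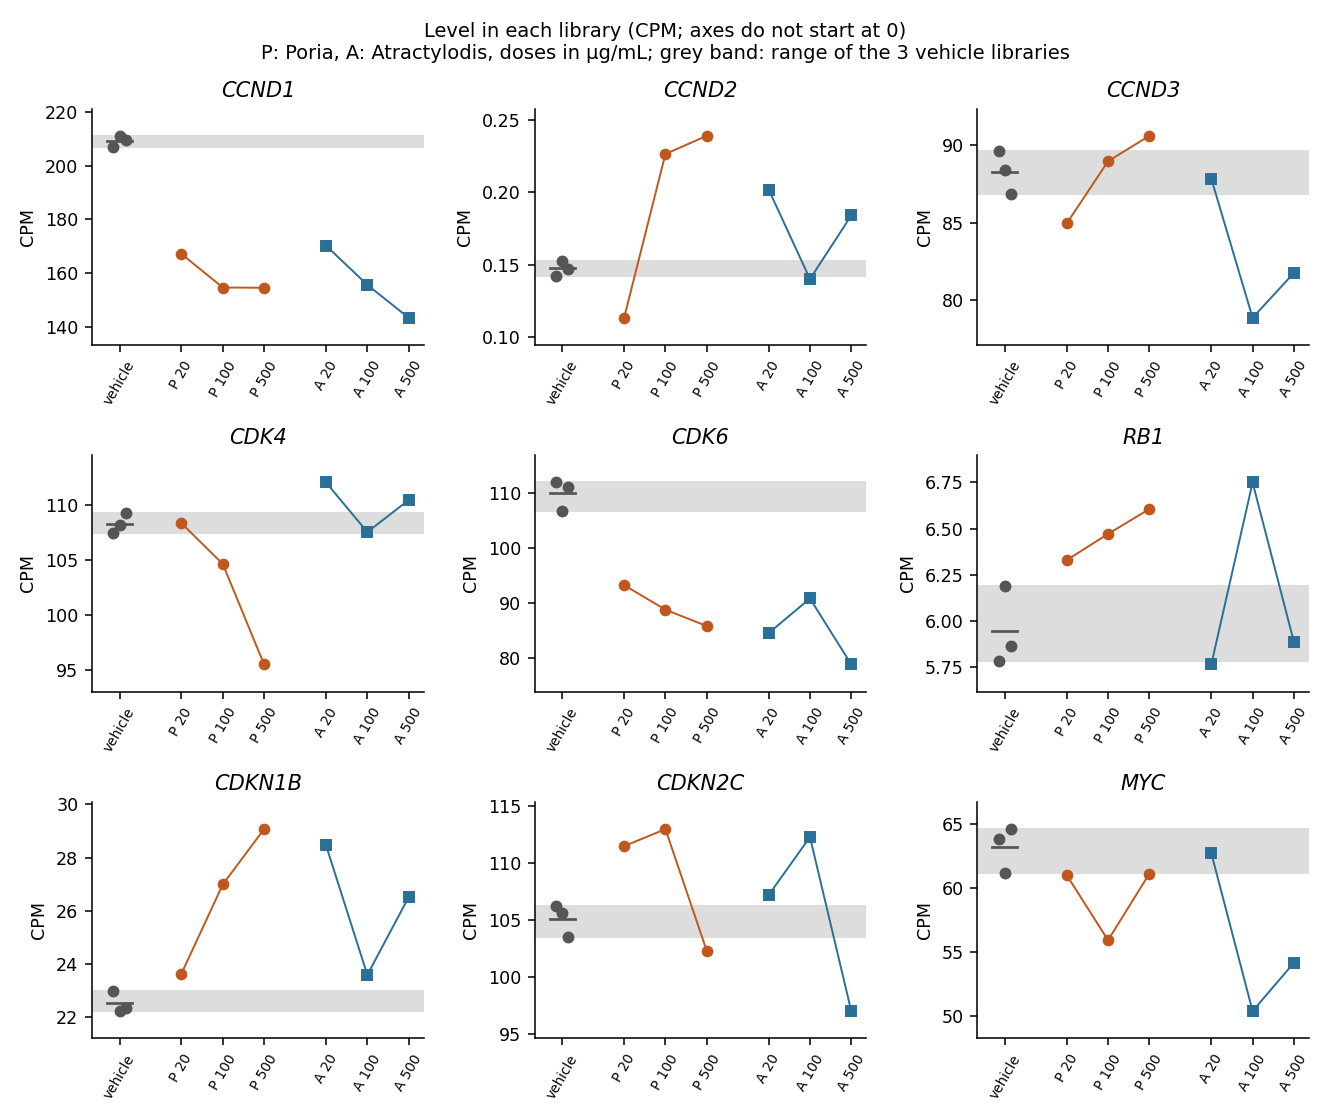
Level of each of the 9 genes in every library, in CPM on linear axes that do not start at 0, with vehicle libraries as grey circles (bar: mean; band: range), Poria as orange circles and Atractylodis as blue squares over 20, 100 and 500 µg/mL. All 6 treated libraries lie below the band for CCND1 and CDK6 and above it for CDKN1B, and they overlap it for the other 6 genes.

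CDK6 (ENSG00000105810, chr7:92604921-92836594, minus strand) encodes one of the pair of kinases that D-type cyclins activate. It had 111.9, 106.7 and 111.1 CPM in vehicle, 93.3, 88.8 and 85.8 CPM over the Poria doses, and 84.6, 90.8 and 78.9 CPM over the Atractylodis doses. Every treated library was below every vehicle library, as for 13.7% of all tested genes, with the Poria values in dose order and the Atractylodis values not. The change was -0.34 ± 0.045 (fold 0.792, adjusted p = 4.9e-05 by edgeR), called in all 14 alternatives with values between -0.45 and -0.27. CDK4 (ENSG00000135446, chr12:57747727-57756013, minus strand) is the other kinase of the pair. It had 107.4, 108.1 and 109.2 CPM in vehicle, 108.3, 104.6 and 95.5 CPM over the Poria doses, and 112.0, 107.5 and 110.4 CPM over the Atractylodis doses. The groups overlapped, and the library at 500 µg/mL of Poria stood lowest. Over the 6 treated libraries CDK4 differed by -0.026 (95% interval -0.12 to 0.066, adjusted p = 0.72 by edgeR).

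CDKN1B (ENSG00000111276, chr12:12715058-12722371, plus strand), the p27 gene, had 23.0, 22.2 and 22.3 CPM in vehicle. It had 23.6, 26.99 and 29.1 CPM over the Poria doses and 28.5, 23.6 and 26.5 CPM over the Atractylodis doses. All 6 treated libraries were above all 3 vehicle libraries, as for 12.4% of all tested genes, but the lowest Poria dose and the middle Atractylodis dose were only just so, at 104.9% and 104.7% of the vehicle mean. The change was 0.23 ± 0.065 (fold 1.17, adjusted p = 0.015 by edgeR). This call was lost without vehicle replicate 2 (log2 change 0.215, adjusted p = 0.071) and without vehicle replicate 3 (0.219, adjusted p = 0.069), and it held without each of the other 7 libraries.

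CDKN2C (ENSG00000123080, chr1:50960745-50974633, plus strand) had 106.2, 105.6 and 103.5 CPM in vehicle, 111.5, 113.0 and 102.3 CPM over the Poria doses, and 107.2, 112.3 and 96.99 CPM over the Atractylodis doses. For both extracts the libraries at 500 µg/mL lay below the vehicle range and those at 20 and 100 µg/mL above it. The change over the 6 treated libraries was 0.029 (95% interval -0.067 to 0.12, adjusted p = 0.70 by edgeR). RB1 (ENSG00000139687, chr13:48303726-48599436, plus strand) was present at 239 to 332 counts in every library. It had 5.78, 6.19 and 5.86 CPM in vehicle, 6.33, 6.47 and 6.61 CPM over the Poria doses, and 5.76, 6.75 and 5.88 CPM over the Atractylodis doses. The 3 Poria libraries were above the vehicle range, and of the Atractylodis libraries 1 was below, 1 inside and 1 above it. RB1 differed by 0.085 (95% interval -0.074 to 0.24, adjusted p = 0.45 by edgeR).

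MYC (ENSG00000136997) had 63.9, 61.2 and 64.6 CPM in vehicle, 61.0, 55.9 and 61.1 CPM over the Poria doses, and 62.7, 50.4 and 54.2 CPM over the Atractylodis doses. The Atractylodis library at 20 µg/mL lay inside the vehicle range, and the other 5 treated libraries lay below it, 2 of the Poria libraries by less than 1 CPM. The change was -0.135 ± 0.060 (95% interval -0.26 to -0.008, adjusted p = 0.11 by edgeR), which missed the threshold. It passed without the Atractylodis library at 20 µg/mL (-0.16, adjusted p = 0.048) and with no filter on low counts (-0.132, adjusted p = 0.028).

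The proportions between these mRNAs shifted with the single genes, and are given as a description. The 3 D-type cyclins summed to 67.5 to 76.2 CPM per kb in treated libraries and 85.0 to 86.0 CPM per kb in vehicle libraries. CCND1 made up 48.6% to 52.3% of that sum in treated libraries and 56.2% to 57.3% in vehicle libraries. CDK6 made up 11.3% to 13.8% of the sum of CDK4 and CDK6 in treated libraries, against 15% to 15.7% in vehicle libraries. The ratio of CDKN1B to CCND1 per kb was 0.229 to 0.305 in treated and 0.171 to 0.18 in vehicle libraries. None of these measures overlapped between the groups, and each was built on CCND1, CDK6 or CDKN1B, which did not overlap themselves. The ratio of CDKN1B to CCND1 was highest at 500 µg/mL for both extracts, at 0.305 for Poria and 0.3 for Atractylodis. The ratio of CDKN2C to the summed kinases did overlap, at 0.557 to 0.67 in treated and 0.573 to 0.596 in vehicle libraries.

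**Figure D2:**
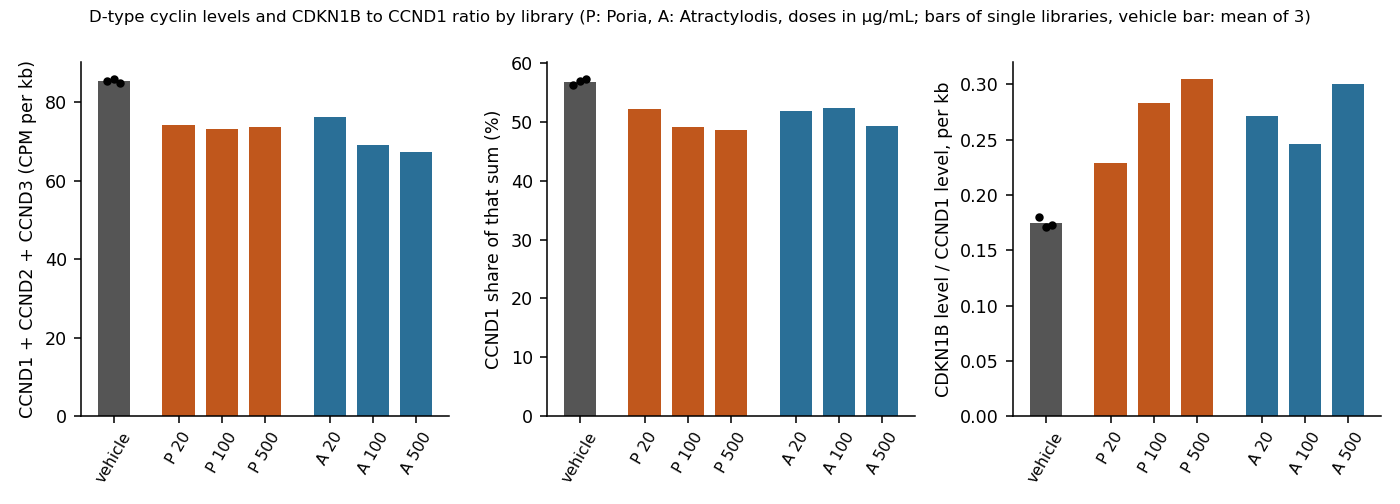
Bars give the summed level of CCND1, CCND2 and CCND3 (CPM per kb), the CCND1 share of that sum (%) and the ratio of CDKN1B to CCND1 per kb, for vehicle (mean of 3 libraries, points) and single Poria and Atractylodis libraries at 20, 100 and 500 µg/mL. The sum is 67.5 to 76.2 CPM per kb in treated and 85.0 to 86.0 CPM per kb in vehicle libraries, and the ratio is 0.229 to 0.305 in treated and 0.171 to 0.18 in vehicle libraries.

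Dose trends were fitted as 1 slope per extract over steps 0, 1, 2 and 3 for vehicle, 20, 100 and 500 µg/mL, in log2 units per step. For Poria 1 gene rose and 3 fell, so 4 of 9 passed, where 20.8% of all tested genes did (9.17% higher and 11.6% lower). CCND1 (-0.16 ± 0.022, adjusted p = 0.00026 by edgeR), CDK6 (-0.12 ± 0.025, adjusted p = 0.0055) and CDK4 (-0.053 ± 0.017, adjusted p = 0.030) fell, and CDKN1B rose (0.11 ± 0.030, adjusted p = 0.020). For Atractylodis 3 of 9 genes passed, each lower, where 19.0% of all tested genes passed (8.49% higher and 10.5% lower). CCND1 (-0.18 ± 0.023, adjusted p = 0.00023 by edgeR), CDK6 (-0.15 ± 0.026, adjusted p = 0.0019) and MYC (-0.091 ± 0.024, adjusted p = 0.016) fell, and CDKN1B had a slope of 0.072 (95% interval 0.006 to 0.14, adjusted p = 0.12). Both slopes use the same 3 vehicle libraries, so they are not independent of each other.

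Single libraries set part of the trend calls. The CDK4 slope with Poria was -0.025 (adjusted p = 0.56 by edgeR) without the Poria library at 500 µg/mL. Its adjusted p was 0.051 without vehicle replicate 2 and 0.061 without vehicle replicate 3, at slopes of -0.057 and -0.054. With no filter on low counts it was -0.051 (adjusted p = 0.065). The slope was -0.024 with library totals alone and -0.023 with a correction for GC content and length, each with an adjusted p of 0.35. The CDKN1B slope with Poria was 0.098 (adjusted p = 0.23 by edgeR) without the library at 500 µg/mL and 0.105 without the library at 100 µg/mL (adjusted p = 0.054). It was 0.1 without vehicle replicate 2 (adjusted p = 0.06) and 0.101 without vehicle replicate 3 (adjusted p = 0.058). The CDKN1B slope with Atractylodis passed without the Atractylodis library at 20 µg/mL (0.070, adjusted p = 0.025 by edgeR) and with no filter on low counts (0.073, adjusted p = 0.044). The MYC slope with Atractylodis missed the threshold without the library at 100 µg/mL (-0.068, adjusted p = 0.068 by edgeR), without vehicle replicate 3 (-0.086, adjusted p = 0.05) and with library totals alone (-0.066, adjusted p = 0.072). The CDK6 slope with Atractylodis was -0.16 without the library at 500 µg/mL (adjusted p = 0.05).

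**Figure D3:**
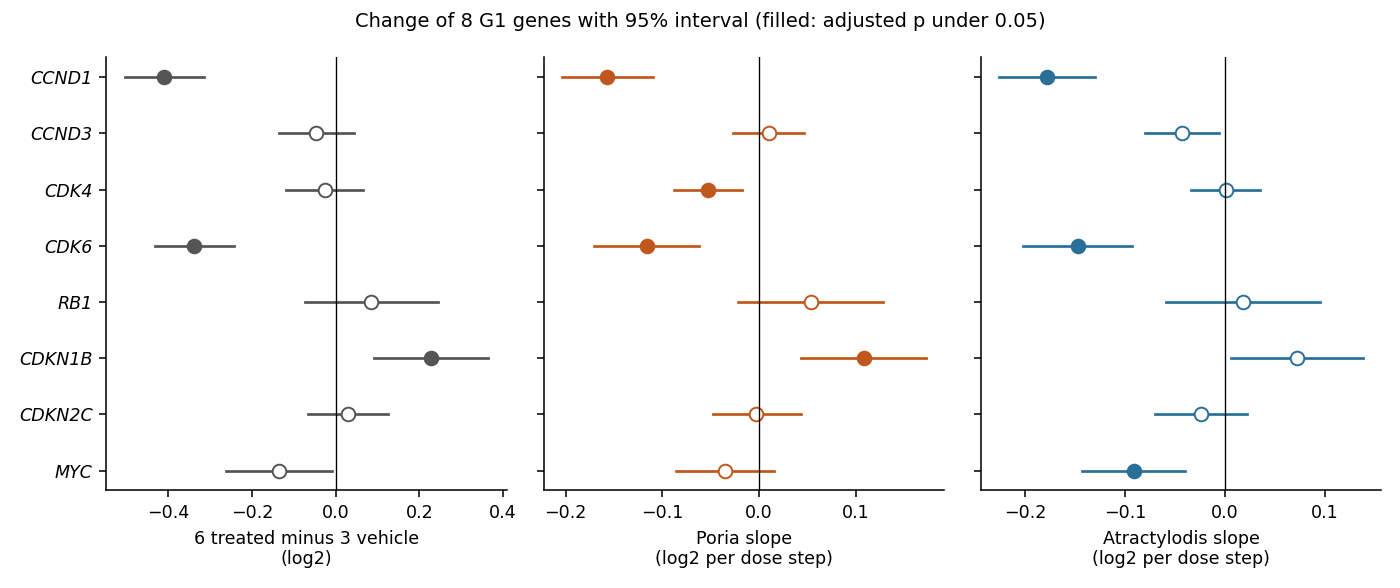
Points give the log2 change of treated over vehicle libraries (left) and the log2 slope per dose step of Poria (middle) and Atractylodis (right) for 8 genes, with 95% intervals from the edgeR fit; filled points passed an adjusted p of 0.05, and CCND2 is left out for its low counts. CCND1 and CDK6 lie left of 0 in each panel, at -0.41 and -0.34 for treated over vehicle, and CDKN1B lies right of 0 at 0.23.

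Slopes were also fitted among the treated doses alone, leaving the step between vehicle and extract out of them, and most of these trends were then not called. For Poria 0 of 9 genes passed by edgeR, against 2.45% of all tested genes (1.20% higher and 1.25% lower). An unadjusted p under 0.05 was found for 2821 of all 18356 tested genes and for 3 of the 9. DESeq2 also called 0 of the 7 genes to which it gave an adjusted p. The 3 genes were CCND1 (-0.057, adjusted p = 0.30 by edgeR), CDK4 (-0.091, adjusted p = 0.083) and CDKN1B (0.15, adjusted p = 0.092). The last 2 passed when any single Atractylodis library was left out (adjusted p = 0.041 and 0.023). Each such omission gave the same Poria slope and adjusted p, so the omissions do not count separately. CDKN1B also passed with no filter on low counts (0.152, adjusted p = 0.021). For Atractylodis CCND1 alone passed (-0.12 ± 0.027, adjusted p = 0.0091 by edgeR), where 4.04% of all tested genes did (1.50% higher and 2.54% lower). That call was lost without the library at 500 µg/mL (-0.13, adjusted p = 0.19) and without the library at 20 µg/mL (-0.12, adjusted p = 0.43), and with the dose itself in place of steps (adjusted p = 0.078). MYC passed there without the library at 500 µg/mL (-0.32, adjusted p = 0.036 by edgeR) and with no filter on low counts (-0.109, adjusted p = 0.044), against -0.11 (adjusted p = 0.31) with it.

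The extracts were then compared with each other. The difference of the slopes, Poria minus Atractylodis, passed for 0 of 9 genes by edgeR. Over all tested genes 1.16% passed (0.485% higher and 0.676% lower). An unadjusted p under 0.05 was found for 2409 of all 18356 tested genes and for 3 of the 9. CDK4 had the lowest adjusted p, with a difference of -0.054 (95% interval -0.092 to -0.016, adjusted p = 0.18), followed by CCND3 at 0.053 (0.013 to 0.093, adjusted p = 0.23) and MYC at 0.056 (95% interval reaching 0.11, adjusted p = 0.38). For CCND1 the difference was 0.021 (-0.031 to 0.073, adjusted p = 0.78) and for CDK6 0.031 (-0.029 to 0.091, adjusted p = 0.70). At matched doses, Poria minus Atractylodis likewise passed for 0 of 9 genes by edgeR. Over all tested genes 0.163% passed (0.0654% higher and 0.0981% lower). An unadjusted p under 0.05 was found for 2526 of all 18356 tested genes and for 2 of the 9. These 2 were CDK4 at -0.099 (95% interval -0.18 to -0.019, adjusted p = 0.26) and CCND3 at 0.091 (0.003 to 0.18, adjusted p = 0.35). DESeq2 called 0 in both comparisons, over 7 and 6 genes with an adjusted p. CCND3 passed at matched doses without the Poria or without the Atractylodis library at 20 µg/mL (0.161 and adjusted p = 0.047 in each case, by edgeR). Both omissions amount to the same fit, since the library left at 20 µg/mL has no partner.

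Across 12653 genes the treated-against-vehicle change followed GC content, with a Spearman rho of -0.43, a description over genes that share these libraries. CCND1 (50.3% GC) and CDK6 (39.5% GC) lay well under the median change of genes within 5 points of their GC content, which was -0.029 over 4182 genes and 0.072 over 4586 genes. CDKN1B (47.7% GC) lay above a median of 0 over 4584 genes. With GC content and length corrected, the changes were -0.39 for CCND1 (adjusted p = 1.8e-05 by edgeR), -0.45 for CDK6 (adjusted p = 6.4e-06) and 0.24 for CDKN1B (adjusted p = 0.018). The correction gave CCND3 a called Poria slope of 0.046 (adjusted p = 0.038 by edgeR), against 0.010 (adjusted p = 0.74) without it. Scaling by library totals alone moved the share of higher calls over all genes to 74.1%, against 47.4% with TMM, while the changes were -0.34 for CCND1, -0.27 for CDK6 and 0.30 for CDKN1B.

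**Figure D4:**
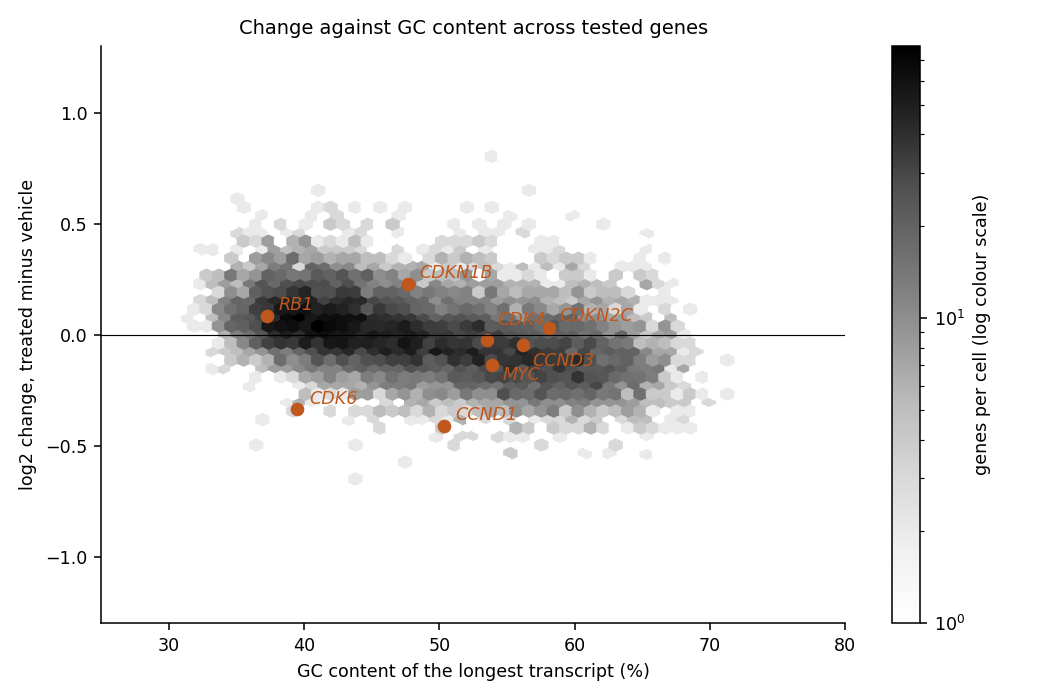
Log2 change of treated over vehicle libraries against the GC content of the longest transcript (%) for 12649 genes, as hexagons shaded by the number of genes on a log colour scale, with 8 of the 9 genes marked in orange; CCND2 is below the level minimum, and 5 genes outside the axes are not drawn. The cloud slopes downward (rho -0.43). CDK6 at 39.5% GC and CCND1 at 50.3% GC lie below the median change of genes within 5 points of their GC content (0.072 and -0.029).

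For each of the 3 called genes, the 3 genes with the most similar changes over the 6 treated libraries were sought by root mean square distance in log2, among 6205 or 6206 genes averaging 5 or more in log2 CPM. Nearest to CCND1 were ARHGDIA (0.0265), FSTL3 (0.0314) and KLF16 (0.037), where the median distance of all genes was 0.392. Nearest to CDK6 were IFFO2 (0.0474), GRAMD2B (0.048) and ARHGAP23 (0.048), against a median of 0.321. CDKN1B had no neighbour as close, with PSMB8 (0.0725), DCUN1D5 (0.0784) and BEGAIN (0.0786) nearest and a median of 0.293.

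Promoter windows are shown for CDK6 and CDKN1B, which were called in opposite directions, and for CDK4, the kinase that was not called over the 6 treated libraries. They run 250 bases before to 50 bases after the RefSeq start (GRCh38.p14) and are read 5′ to 3′ on the gene's strand. RefSeq windows were found for 6 of the 9 genes. Capitals mark 3 short motifs on either strand. These are the GC box, an element bound by SP1 and spelled GGGCGG, the E-box, an element bound by MYC and its relatives and spelled CACGTG, and the box with the letters CCAAT that is bound by NF-Y. None of the marked matches overlap. The windows lie at chr7:92836524-92836823 (minus strand, 1 of 2 listed for CDK6), chr12:12717118-12717417 (plus strand) and chr12:57752261-57752560 (minus strand). The CDKN1B and CDK4 windows start from sites 2310 and 3703 bases inside the outermost GENCODE start.
CDK6: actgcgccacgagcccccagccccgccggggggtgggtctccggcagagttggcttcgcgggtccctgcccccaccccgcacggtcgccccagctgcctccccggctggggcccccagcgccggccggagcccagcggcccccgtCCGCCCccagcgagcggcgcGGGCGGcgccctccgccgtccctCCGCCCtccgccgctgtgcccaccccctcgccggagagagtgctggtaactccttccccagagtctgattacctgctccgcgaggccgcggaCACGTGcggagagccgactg
CDKN1B: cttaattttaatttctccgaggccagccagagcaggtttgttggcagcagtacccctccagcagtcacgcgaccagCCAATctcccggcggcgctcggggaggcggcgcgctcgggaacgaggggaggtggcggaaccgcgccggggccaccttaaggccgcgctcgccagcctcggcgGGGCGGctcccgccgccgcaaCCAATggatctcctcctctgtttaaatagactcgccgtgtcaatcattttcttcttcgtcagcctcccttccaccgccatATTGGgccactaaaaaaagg
CDK4: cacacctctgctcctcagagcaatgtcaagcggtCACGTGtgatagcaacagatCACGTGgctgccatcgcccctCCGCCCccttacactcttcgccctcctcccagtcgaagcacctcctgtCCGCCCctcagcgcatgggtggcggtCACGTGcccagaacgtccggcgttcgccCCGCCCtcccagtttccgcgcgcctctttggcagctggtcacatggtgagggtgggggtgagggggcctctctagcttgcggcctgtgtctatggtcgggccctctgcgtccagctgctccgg
CDK6 held 3 GC boxes and 1 E-box, CDKN1B held 1 GC box and 3 NF-Y boxes, and CDK4 held 3 GC boxes and 3 E-boxes, at 216, 196 and 101 bases before the start. Of 35116 windows in the table, 45% held a GC box, 7.26% an E-box and 34.6% an NF-Y box. At least 3 E-boxes occurred in 0.094% of windows and at least 3 NF-Y boxes in 3.26%. Also searched, with 0 matches in these 3 windows, were the E2F element in the forms TTTGGCGC, TTTCCCGC, TTTCGCGC and TTTGCCGC (in 3.31% of all windows), the FOXO element spelled GTAAACA (3.42%), the TATA element spelled TATAAA (11.5%) and the cyclic AMP element spelled TGACGTCA (1.85%). A match is a description of letters, not of a bound site, and the counts were not set against the changes.

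Genes that act around this core were counted by function in the comparison of treated with vehicle libraries, with 12.0% of all tested genes higher and 13.3% lower as background. The lists were chosen with earlier results of these data known, so their counts here and below describe them and do not test an excess over background. All 6 treated libraries lay above all 3 vehicle libraries for 12.4% of all tested genes and below them for 13.7%. Among 7 genes of the cyclin E and CDK2 step, CCNC rose and CDC25A fell. CCNC, cyclin C of the Mediator kinase, changed by 0.18 ± 0.040 (adjusted p = 0.0033 by edgeR), and it missed the threshold after GC correction (0.099, adjusted p = 0.06). CDC25A, a phosphatase that activates CDK2, changed by -0.19 ± 0.056 (adjusted p = 0.019 by edgeR), and its call was lost without vehicle replicate 2 (-0.16) and without vehicle replicate 3 (-0.19), with library totals alone (-0.12) and after GC correction (-0.15). CCNE1 (0.043), CCNE2 (0.075) and CDK2 (-0.008) did not pass, with adjusted p between 0.35 and 0.95. Of 5 other CDK inhibitors 0 passed by edgeR and by DESeq2. An unadjusted p under 0.05 was found for 0 of these 5 and for 6716 of all 18356 tested genes. CDKN2A, counted without separating its p16 and ARF transcripts, was present at 263 ± 8.5 CPM in vehicle (SD, n = 3). CDKN2B (p15INK4b) fell over the Poria doses by 0.069 per step (adjusted p = 0.017 by edgeR), a call lost without the library at 500 µg/mL (-0.086, adjusted p = 0.066), without that at 100 µg/mL (-0.066, adjusted p = 0.051) and with library totals alone (-0.04, adjusted p = 0.16).

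Of 12 genes of the RB family and E2F, edgeR called 3, each lower, with a median change of -0.054. DESeq2 called 5, a count for which the share over all genes is not given here. E2F7, a transcriptional repressor, fell by 0.21 (adjusted p = 0.0074 by edgeR), E2F3, an activator, fell by 0.13 (adjusted p = 0.018) and E2F4, a partner of the pocket proteins, fell by 0.13 (adjusted p = 0.030). With library totals alone these were -0.14, -0.064 and -0.063, and none of the 3 passed. E2F7 had 103, 107.4 and 122.2 CPM over the Poria doses and 100.9, 103.4 and 114.3 CPM over the Atractylodis doses. Its vehicle libraries had 122.7 to 127.5 CPM, so the highest Poria dose lay just below them. Neither E2F7 slope from vehicle passed (adjusted p = 0.81 and 0.50 by edgeR). Among treated Poria libraries E2F7 rose by 0.124 per step (adjusted p = 0.019 by edgeR). The E2F3 call was also lost without vehicle replicate 1 (-0.13) or vehicle replicate 2 (-0.13) and with no filter on low counts (-0.127, adjusted p = 0.061). The E2F4 call was lost without vehicle replicate 1 (-0.13), vehicle replicate 3 (-0.11), the Poria library at 100 µg/mL (-0.13) or the Atractylodis library at 100 µg/mL (-0.13), and after GC correction (-0.042). TFDP1, the E2F dimer partner, missed the threshold at -0.125 ± 0.045 (adjusted p = 0.051 by edgeR). RBL2, the pocket protein p130, also missed it, at 0.104 ± 0.038 (adjusted p = 0.05), although its 6 treated libraries (68.5 to 73.7 CPM) lay above its vehicle libraries (65.8 ± 1.90 CPM, SD, n = 3).

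Of 10 genes that turn over p27 or activate CDKs, 1 rose and 1 fell. SKP2, the F-box protein that recognises p27, rose by 0.24 ± 0.055 (adjusted p = 0.0037 by edgeR). It had 28.0, 27.5 and 28.6 CPM over the Poria doses and 27.3, 25.0 and 25.0 CPM over the Atractylodis doses, all above its vehicle libraries at 21.8 to 24.1 CPM. CKS1B, the cofactor of SKP2 in p27 recognition, fell by 0.26 ± 0.051 (adjusted p = 0.0013 by edgeR), with all 6 treated libraries (61.5 to 73.0 CPM) below vehicle (77.2 to 85.7 CPM). The SKP2 and CKS1B calls held in every alternative run. Of 12 genes of cyclin D turnover and folding, 1 rose and 3 fell, with a median of -0.11. GSK3A, a glycogen synthase kinase, fell by 0.27 ± 0.039 (adjusted p = 9.9e-05 by edgeR) and held in every alternative. CDC37, the chaperone partner that loads CDK4 onto HSP90, fell by 0.17 (adjusted p = 0.0083), FBXO31 fell by 0.16 (adjusted p = 0.010) and FBXO4 rose by 0.25 (adjusted p = 0.0084), the last 2 being F-box proteins. These 3 missed the threshold after GC correction (-0.078, -0.096 and 0.18), CDC37 and FBXO31 also with library totals alone (-0.11 and -0.096), and FBXO31 also without vehicle replicate 3 (-0.15).

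In the MYC network, 2 of 17 tested genes rose and 6 fell, with a median of -0.071. MGA, a MAX partner that opposes MYC, rose by 0.36 ± 0.044 (adjusted p = 2.6e-05 by edgeR), with 47.4 to 53.2 CPM in treated and 38.2 to 41.3 CPM in vehicle libraries. MAX, the dimer partner of MYC, fell by 0.24 ± 0.038 (adjusted p = 0.00022), and MNT, a MAX-binding repressor, fell by 0.27 ± 0.050 (adjusted p = 0.00075). These 3 calls held in every alternative, whereas that of MLXIP, a glucose-responsive relative, was lost without vehicle replicate 3 (-0.14) and with library totals alone (-0.10), against -0.17 (adjusted p = 0.0067). FBXW7, a ubiquitin ligase subunit that targets MYC, also rose, at 0.159 ± 0.050 (adjusted p = 0.026 by edgeR). Its call was lost after GC correction (0.13) and without vehicle replicate 1 (0.124), vehicle replicate 3 (0.152) or the Poria library at 20 µg/mL (0.139). Of 15 genes listed as MYC targets, 2 rose and 6 fell, with a median of -0.084. SRM (spermidine synthase) fell by 0.37 ± 0.045 (adjusted p = 2.3e-05 by edgeR), FBL (fibrillarin) by 0.32 ± 0.038 (adjusted p = 1.8e-05), PTMA by 0.24 ± 0.047 (adjusted p = 0.00095) and NCL (nucleolin) by 0.20 ± 0.040 (adjusted p = 0.0012), and these 4 held in every alternative. The 2 that rose, TERT (telomerase, 0.445, with 1.13 CPM in vehicle) and CCNB1IP1 (a ubiquitin ligase, 0.142), had adjusted p of 0.034 and 0.039. The TERT call was lost without vehicle replicate 1 (0.385), vehicle replicate 3 (0.335) or the Poria library at 100 µg/mL (0.411), and by DESeq2 (adjusted p = 0.071). The CCNB1IP1 call held without the Atractylodis library at 20 or 500 µg/mL, but without any one of the other 7 libraries the change was 0.115 to 0.155 and adjusted p was 0.051 to 0.19.

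Of 19 transcription factors linked to G1 gene expression, 2 rose and 9 fell, with a median of -0.014. ETS2 fell by 0.32 ± 0.036 (adjusted p = 1.2e-05 by edgeR), TCF7L2, a Wnt effector, by 0.32 ± 0.055 (adjusted p = 0.00044), RELA, an NF-kB subunit, by 0.26 ± 0.042 (adjusted p = 0.00030), and FOXO3, a factor known to activate CDKN1B, by 0.23 ± 0.035 (adjusted p = 0.00016). EGR1, an immediate early gene, rose by 0.54 ± 0.12 (adjusted p = 0.0076), with 25.4, 30.02 and 36.4 CPM over the Poria doses and 26.7, 26.6 and 26.7 CPM over the Atractylodis doses, above 18.4 to 21.3 CPM in vehicle. These 5 calls held in every alternative. FOXO1 also rose (0.18, adjusted p = 0.041), but not by DESeq2 (adjusted p = 0.053), after GC correction (0.16, adjusted p = 0.073) or without any one of 7 libraries, namely the 3 vehicle libraries, the lower 2 Poria doses and the upper 2 Atractylodis doses (0.153 to 0.203).

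**Figure D5:**
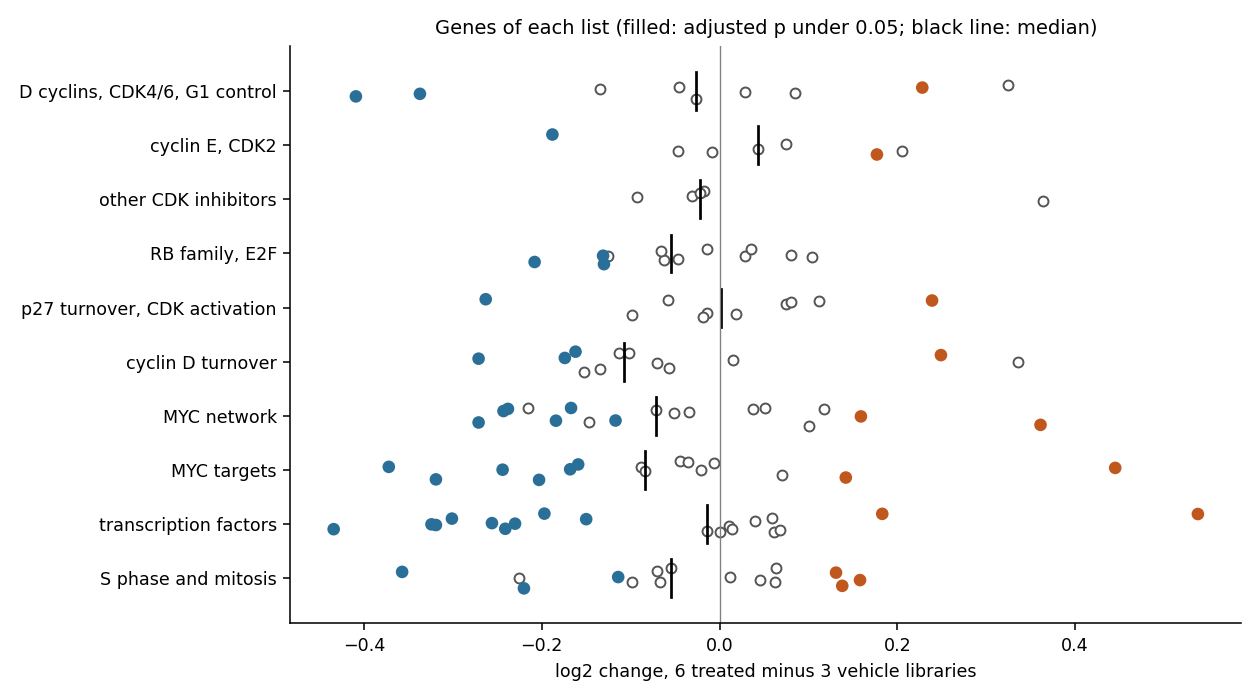
Log2 change of treated over vehicle libraries for every tested gene of 10 lists, 1 point per gene, filled where the adjusted p was under 0.05 (orange higher, blue lower), with a black line at the median. Over all tested genes 12.0% were called higher and 13.3% lower. The fallen genes outnumber the risen ones for transcription factors (9 against 2), MYC network and MYC targets (6 against 2 in each). They also do so for RB family and E2F (3 against 0), cyclin D turnover (3 against 1) and the 9 genes (2 against 1). The cyclin E and p27 lists have 1 of each, other CDK inhibitors have 0, and S phase and mitosis has 3 of each. The lists were chosen with earlier results of these data known.

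Downstream, 15 genes of S phase and mitosis split 3 higher and 3 lower, with a median of -0.055. CCNB1 (cyclin B1) fell by 0.22 ± 0.034 (adjusted p = 0.00019 by edgeR) and PLK1, a mitotic kinase, fell by 0.36 ± 0.056 (adjusted p = 0.00037), both in every alternative. PLK1 had 138.8, 137.4 and 143.8 CPM over the Poria doses and 143.8, 129.1 and 117.6 CPM over the Atractylodis doses, below 165.4 to 182.6 CPM in vehicle. PCNA (0.14, adjusted p = 0.010) and MCM6 (0.16, adjusted p = 0.015), which serve DNA replication, rose. The PCNA call was lost without vehicle replicate 3 (0.12), and the MCM6 call without vehicle replicate 1 (0.13), without vehicle replicate 2 (0.16) and after GC correction (0.11). CDK1 (0.13) and MCM7 (-0.11) passed with adjusted p of 0.042 and 0.047, and both lost their calls without any single vehicle library and after GC correction (0.044 and -0.035). CDK1 was also lost without the Poria library at 20 (0.121) or 100 µg/mL (0.104) or the Atractylodis library at 100 µg/mL (0.131). MCM7 was also lost with library totals alone (-0.047) and without either extract's library at 100 or 500 µg/mL (-0.123 to -0.09). The Poria slope passed by edgeR for 2 of the 15, both lower, where 11.6% of all tested genes were called lower. These were PLK1 (-0.104, adjusted p = 0.018) and MCM7 (-0.046, adjusted p = 0.038). The PLK1 call was lost without the Poria library at 100 µg/mL (-0.091, adjusted p = 0.056) and after GC correction (-0.072, adjusted p = 0.058). The MCM7 call was lost without any one of 6 libraries, at slopes of -0.05 to -0.039, as well as with no filter, with library totals alone and after GC correction, and neither was called with the dose itself in place of steps.

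The Atractylodis slope passed by edgeR for 7 of the 15, each lower, where 10.5% of all tested genes were called lower. These were MKI67 (-0.146), PLK1 (-0.177), RRM2 (-0.101), MCM7 (-0.074), BUB1 (-0.086), MCM5 (-0.065) and CCNB1 (-0.077), with adjusted p of 0.0013 to 0.031. Of the 7 calls, 0 held in every alternative, and 6 were lost without 1 library. Without the Atractylodis library at 500 µg/mL all but that of PLK1 were lost, with slopes of -0.097 for MKI67, -0.036 for RRM2, -0.061 for MCM7, -0.068 for BUB1, -0.042 for MCM5 and -0.113 for CCNB1. CCNB1 was also lost without any single vehicle library (-0.076 to -0.063) or the Atractylodis library at 100 µg/mL (-0.076), and MCM5 without that same library (-0.064). The PLK1 slope was lost only with the dose itself in place of steps (adjusted p = 0.28).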

How the data were processed

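For each of 9 SW1783 samples, RNA was sequenced with a directional library kit as paired reads. Per the submitters' processing notes, FastQC 0.11.9, Trim Galore 0.6.5, STAR 2.7.3a and RSEM 1.3.3 were used with hg38; the roles of these tools and the annotation release are not given in the sources used here. Deposited by the authors were expected counts per gene, of which 10.027% to 10.533% per library were not whole, and they were rounded to whole numbers. The counter's strand setting is not given, so reads of overlapping or antisense genes may not be separated. The table's 270 columns of other samples were not used. Symbols and positions came from GENCODE 29 (57055 genes).

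Tests used edgeR 4.0.16 in R 4.3.3: TMM scaling, filterByExpr (count minimum 10, total minimum 15; 42319 genes not tested), robust quasi-likelihood fits and Benjamini-Hochberg adjustment at 0.05. Residual degrees of freedom were 7 for treated against vehicle, 6 for the trends, and 4 for slopes within treated libraries and for matched doses; part of the last come from the vehicle libraries. Each SE was derived from the F statistic as |log2| over its square root. Alternatives were DESeq2 1.42.0, RLE size factors, library totals alone, no filter on low counts, the dose itself, leaving out each library, and a correction for GC content and length by splines with 5 degrees of freedom on each library. The scripts were tested on simulated data with less scatter between libraries than the fits estimated here, so that check does not measure error rates in these data. The 9 genes and the lists were chosen with earlier results of these data known. Named were the 9 genes, up to 4 genes per list with the smallest adjusted p, the 3 nearest patterns, and any count of 5 or fewer.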

Additional observations from a re-analysis of the deposited data

Results flagged for a closer look

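The dose slopes of Poria and Atractylodis differed by test for 4 genes of the cell cycle lists, none of them among the 9 core genes. In each the Poria slope was above the Atractylodis slope in log2 per dose step, by the edgeR quasi-likelihood contrast adjusted over 18356 genes. They were 2 of 7 genes of the cyclin E and CDK2 step and 2 of 15 of S phase and mitosis. The other cell cycle lists had 0, and 1.16% of all tested genes passed. For CDK2, the kinase partner of cyclins E and A, the difference was 0.099 ± 0.022 (adjusted p = 0.034); CDK2 had 60.6, 63.3 and 70.85 CPM over the Poria doses and 61.1, 59.5 and 53.5 CPM over the Atractylodis doses. For CCNA2 (cyclin A2) it was 0.104 ± 0.022 (adjusted p = 0.03), with 80.01, 81.1 and 90.7 CPM over the Poria doses and 78.0, 77.6 and 67.3 CPM over the Atractylodis doses. For RRM2, a subunit of ribonucleotide reductase, it was 0.103 (adjusted p = 0.028), and for BUB1, a spindle checkpoint kinase, it was 0.101 (adjusted p = 0.027).

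Each of the 4 calls was lost when either library at the highest dose was left out, though not every difference shrank. Without the Poria library at 500 µg/mL the differences were 0.06 for CDK2, 0.064 for CCNA2, 0.104 for RRM2 and 0.094 for BUB1, with adjusted p of 0.43 to 0.65. Without the Atractylodis library at 500 µg/mL they were 0.069, 0.069, 0.048 and 0.085 in the same order, with adjusted p of 0.59 to 0.67. The CDK2 call was also lost without vehicle replicate 1 (0.099, adjusted p = 0.052) and vehicle replicate 2 (0.099, adjusted p = 0.057). RRM2 and BUB1 were also lost without the Poria library at 100 µg/mL (0.101, adjusted p = 0.059, and 0.095, adjusted p = 0.064). Over all genes 213 were called for this difference, and 0 without either library at 500 µg/mL.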

How the results depend on the processing

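For the 9 genes, 907 combinations of a result and an alternative were run. Of these, 865 kept their status, 26 lost a call, 16 gained one and 0 turned a called direction round. A result that was not called and stayed so counts among the 865, so this number does not measure how firm the calls are. Losses can only fall on called results. The CDK4 slope with Poria lost its call in 7 of 15 alternatives and the CDKN1B slope with Poria in 5 of 15. CCND1 and CDK6 in treated against vehicle were called in all 14 alternatives. With the dose itself in place of dose steps, no slope from vehicle of CCND1, CDK6, CDK4, CDKN1B or MYC was called.

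Over all genes, the number called with the dose itself was 125 for the Poria slope (3817 with steps), 67 for the Atractylodis slope (3495), 54 for the slope difference (213) and 269 for Atractylodis within treated libraries (742). With no filter on low counts it was 555 for the slope difference, 685 for Poria within treated libraries (449) and 583 for matched doses (30). DESeq2 gave 339, 240 and 146 for the same 3 comparisons. GC correction gave 489 for Atractylodis within treated libraries and 13 for matched doses, and library totals alone gave 16 for matched doses. The cause of these shifts was not tested. Leaving out each library in turn gave 2984 to 5354 for treated against vehicle (4639), 2550 to 4242 for the Poria slope, 1035 to 4297 for the Atractylodis slope, 0 to 300 for the slope difference, 16 to 657 and 102 to 1196 for Poria and Atractylodis within treated libraries, and 3 to 368 for matched doses. The lowest counts came without vehicle replicate 1 (first 2), Atractylodis at 500 µg/mL, Poria or Atractylodis at 500 µg/mL, Poria at 500 µg/mL, Atractylodis at 20 µg/mL, and vehicle replicate 2 or 3. Scaling by library totals alone moved the share of higher calls to 74.1% for the Poria slope (44.1% with TMM), 71.4% for the Atractylodis slope (44.6%), 54.5% for the slope difference (41.8%), 74.6% for Poria within treated libraries (49%) and 48.7% for Atractylodis within treated libraries (37.2%), and the median change of all genes in treated against vehicle to 0.081.

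No paired analysis was possible because every treated library is numbered 2, so that treated and vehicle groups share fewer than 2 replicate numbers. A single library per extract and dose gives no error of its own, and the 5 to 12 counts of CCND2 allow no call.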
